A study of Mus musculus with 8 samples.

Results

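The unfolded protein response and the linked integrated stress response were examined in mouse liver through 38 genes, defined by a list of symbols and grouped by their known roles. All 38 were found by Ensembl ID among the 56748 gene IDs of the count table. They fall into 7 sensors and transducers, 14 chaperones and folding factors of the endoplasmic reticulum (ER), 7 genes of ER-associated degradation, and 10 targets or downstream factors of the transcription factor ATF4. Bulk RNA sequencing covered livers of miR-93 knockout (KO) mice and wild-type (WT) mice, with 4 libraries each. All mice had the diet labelled high fat-high fructose, and the titles carry the abbreviation MASLD (metabolic dysfunction-associated steatotic liver disease) and 16 weeks. No group on another diet was analysed here. The labels give no strain, sex or age, do not say in which cells the microRNA is missing, and do not say whether libraries came from separate animals, and p-values therefore measure only the spread among these samples, which may be technical.

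Proteins that are secreted or enter membranes fold in the ER, and the liver, which makes most plasma proteins, carries a heavy folding load. When unfolded proteins build up, 3 membrane sensors respond: IRE1 (gene Ern1) splices the Xbp1 mRNA into the form that encodes an active factor, ATF6 is cut to release its own factor, and PERK (gene Eif2ak3) phosphorylates the translation factor eIF2. Phosphorylated eIF2 lowers translation in general but raises that of the Atf4 mRNA, and other kinases reach the same point from amino acid shortage or viral RNA. Spliced XBP1 and ATF6 mainly drive chaperone and degradation genes, and ATF4 drives amino acid supply, redox and feedback genes. Gene counts hold neither Xbp1 splicing, nor ATF6 cleavage, nor eIF2 phosphorylation, so the comparison concerns mRNA levels alone.

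Total counts ran from 9187279 to 10966019 in KO libraries and from 5085860 to 7451026 in WT libraries. Transcripts of the mitochondrial genome took 8.08% to 15.0% of counts in KO libraries and 25.4% to 77.8% in WT libraries. Neither range overlapped between genotypes (two-sided exact permutation p = 0.0286 for each, the smallest that 70 assignments allow). WT replicate 4 stood apart, with 1131446 counts outside the mitochondrial genome against 4581983 or more in each other library, so results are given with and without it where it matters. Values are in counts per 1e6 (CPM). In this library 1 count is worth 0.562 CPM after scaling, and a count of 0 allows up to 1.69 CPM, a limit for counting error only. Mir93 was at 0 counts in all 8 libraries, which leaves the genotype labels unchecked. The hepatocyte markers were present throughout (6 genes, summed level 35076 to 39688 CPM in KO and 42190 to 55027 CPM in WT). These sums did not overlap, and of the 6 Alb, the gene of albumin, fell (-0.52 ± 0.14, adjusted p = 0.0233), while the other 5 did not pass. Depth and the mitochondrial share cannot be told apart from genotype in this design. In bulk tissue, fewer cells of a type and less RNA per cell cannot be told apart either.

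Among the listed genes, chosen with earlier results of these data known, 13 of 14 ER chaperone genes and 4 of 7 degradation genes rose in KO livers. The sensor and ATF4 branches were mixed. In a further list of ER folding factors, 6 of 23 tested genes rose. Of the 38 genes 36 passed the filter on low counts. Of these 36, 22 rose and 3 fell in KO livers by edgeR's quasi-likelihood test at a Benjamini-Hochberg adjusted p of 0.05 over 13204 genes, where 10.4% of all genes tested rose and 10.7% fell. The median log2 fold change of KO over WT was 0.69 over the 36 genes and -0.01 over all genes tested. The 4 KO libraries lay above the 4 WT libraries for 24 of the genes and below them for 3, against 16.3% and 14.0% of all genes tested. Without WT replicate 4, 26 rose and 4 fell, where 17.8% of all genes rose and 17.5% fell. With mitochondrially encoded genes left out, 22 rose and 3 fell, and after thinning all libraries to equal nuclear depth 17 rose and 2 fell of 35 tested. Scaling by library size alone, which is exposed to the mitochondrial share, moved the median of all genes to 0.54. In that scaling 12 of the 36 were called higher and none lower (4.25% and 0.939% of all genes). Levels below are CPM after TMM scaling, in replicate order, and fold changes are log2 of KO over WT ± the standard error of the fit.

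**Figure D1:**
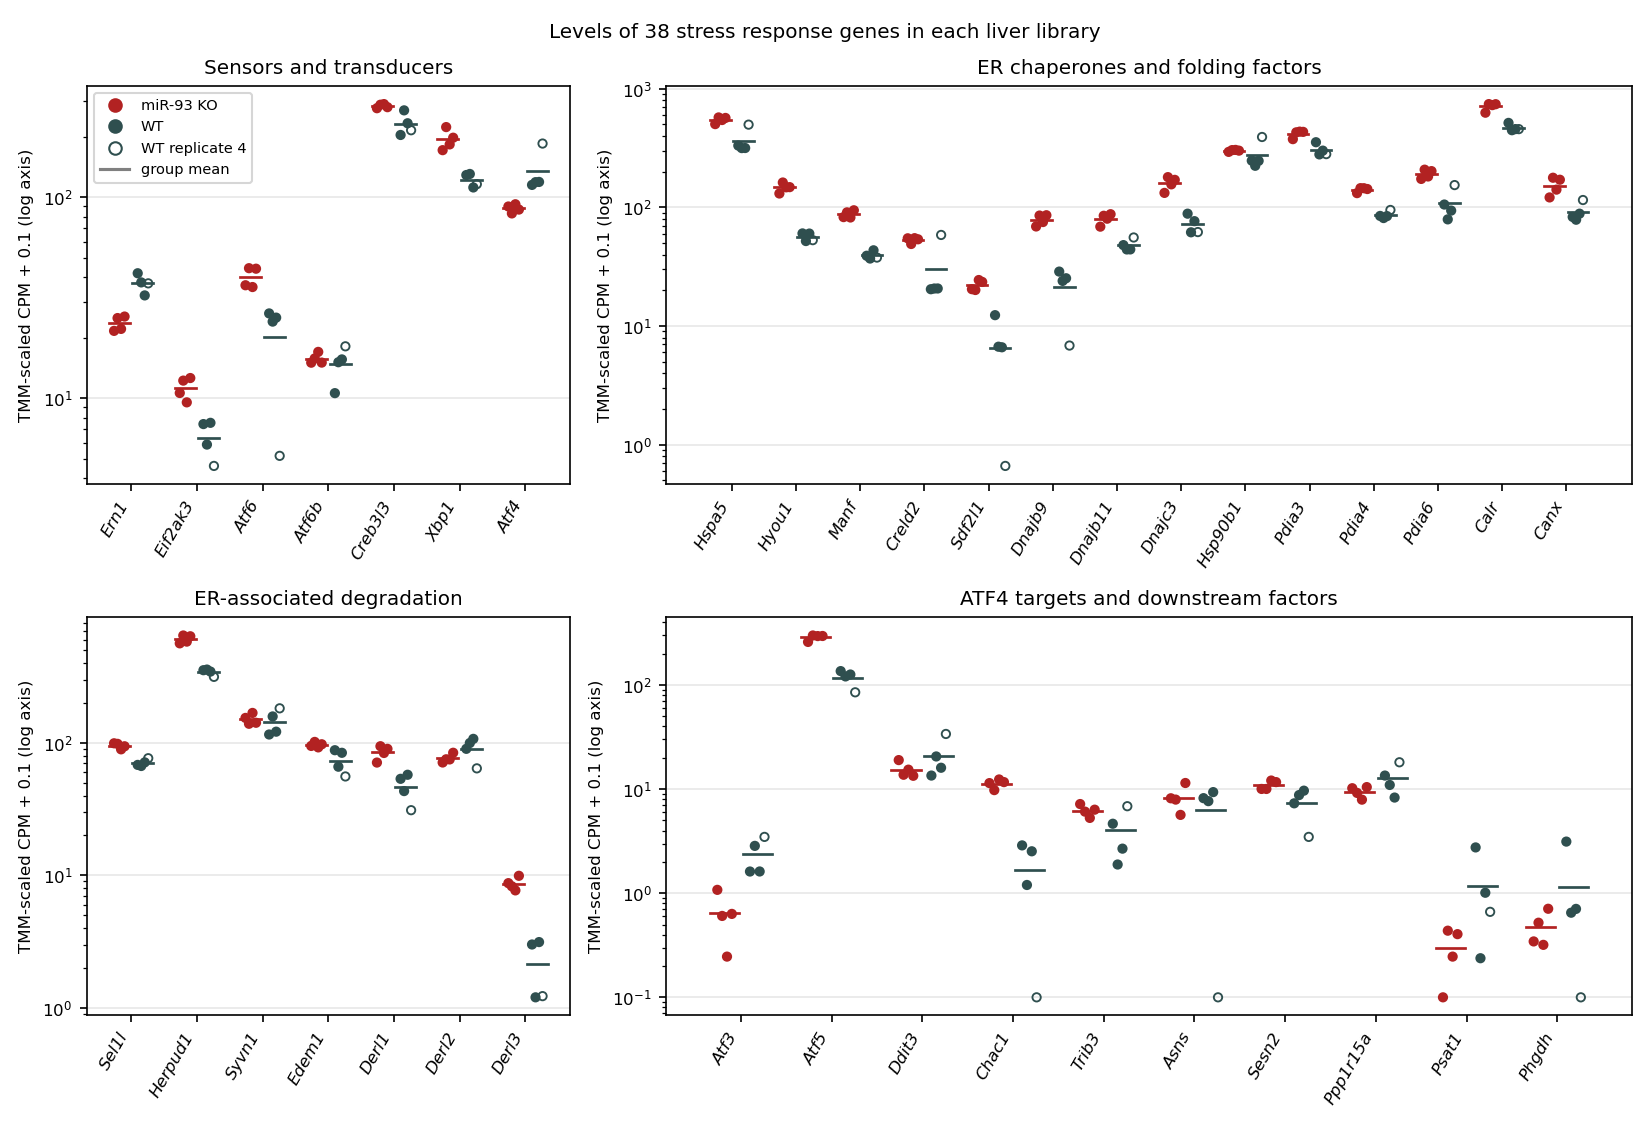
TMM-scaled CPM plus 0.1, on a log axis, for the 38 genes in 4 panels by role, with 4 KO libraries (red) left of 4 WT libraries (dark) and bars at the group means; a level of 0 sits at 0.1. The open circle, WT replicate 4, is far below the other WT libraries for Atf6, Sdf2l1 and Dnajb9 and far above them for Creld2 and Atf4.

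Of the ER chaperones and folding factors, 13 of 14 rose in KO livers and none fell, with a list median of 0.80. The rises ran from 0.46 for Pdia3 to 1.81 for Dnajb9. Without WT replicate 4, all 14 rose and the median was 0.97. Under library size scaling 8 of the 14 were called.

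Hspa5 encodes BiP, the HSP70 chaperone that binds nascent chains in the ER and holds the sensors inactive. Its level was 503, 573, 545 and 567 CPM in KO libraries and 332, 316, 316 and 498 CPM in WT libraries. The groups did not overlap, but WT replicate 4 nearly reached the lowest KO library. The log2 fold change was 0.58 ± 0.17 (adjusted p = 0.0318), and 0.78 (adjusted p = 1.69e-07) without that library. Leaving out any other single library ended the call (adjusted p 0.0539 to 0.0929), as did thinning to equal nuclear depth, library size scaling and the replicate block.

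Hyou1 and Manf, whose products bind BiP, rose, while Sil1, another nucleotide exchange factor of BiP, did not pass (0.24 ± 0.14, adjusted p = 0.239). Hyou1, the ER member of the HSP110 family and a nucleotide exchange factor for BiP, had 131, 162, 148 and 148 CPM in KO and 60.2, 51.95, 60.1 and 52.9 CPM in WT. Every KO library held more than double the level of any WT library, and the log2 fold change was 1.38 ± 0.13 (adjusted p = 4.64e-05), a 2.61-fold rise. Manf, a small ER protein that can be secreted and binds BiP, stood at 82.7, 90.7, 82.1 and 94.5 CPM in KO and 39.03, 36.97, 43.4 and 37.7 CPM in WT. These were tight groups, 82.1 CPM or more against 43.4 CPM or less, with a log2 fold change of 1.15 ± 0.12 (adjusted p = 0.000104). Both calls held under all 19 alternatives tried.

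J-domain co-chaperones stimulate the ATPase of BiP, and Dnajb9, Dnajb11 and Dnajc3 rose, while Dnajc1 (0.30 ± 0.16, adjusted p = 0.199) and Dnajc10 (0.47 ± 0.15, adjusted p = 0.0508), from a further list, did not pass. Dnajb9 (ERdj4), which also restrains IRE1, had 68.96, 85.2, 75.2 and 85.8 CPM in KO and 28.7, 23.9, 25.2 and 6.75 CPM in WT. WT replicate 4 was the lowest, from 12 counts, and the other WT libraries also lay below 29 CPM. The log2 fold change was 1.81 ± 0.27 (adjusted p = 0.00108), and 1.61 (adjusted p = 7.41e-11) without that library. Dnajc3 (p58IPK), a co-chaperone also known as an inhibitor of PERK, had 132, 179.8, 156 and 171 CPM in KO and 88.4, 61.6, 76.5 and 61.9 CPM in WT, a log2 fold change of 1.14 ± 0.16 (adjusted p = 0.000771). Dnajb11 (ERdj3) had 80.3 ± 8.32 CPM in KO and 47.98 ± 5.44 CPM in WT (SD, n = 4 each), with a log2 fold change of 0.75 ± 0.14. Sdf2l1, which works with ERdj3 and BiP, had 20.4, 20.03, 24.3 and 23.4 CPM in KO and 12.3, 6.597, 6.52 and 0.562 CPM in WT. The WT libraries were spread widely, with 1 count in replicate 4, and all lay below the KO libraries (log2 fold change 1.57 ± 0.34, adjusted p = 0.00868). Without WT replicate 4 Sdf2l1 read 1.37 (adjusted p = 2.67e-06), and its call was lost under library size scaling (adjusted p = 0.0708).

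Creld2, an ER stress-induced protein with disulfide isomerase activity, showed how far a single library can matter. Its level was 54.8, 49.1, 54.9 and 53.7 CPM in KO and 20.3, 20.6, 20.6 and 58.5 CPM in WT. WT replicates 1 to 3 were nearly identical and well below the KO libraries, while WT replicate 4, from 104 counts, was above all of them. On the log2 scale KO over WT was 0.94 ± 0.30 (adjusted p = 0.0465), and 1.38 (adjusted p = 5.01e-10) without WT replicate 4. Leaving out any other library in turn ended the call (adjusted p 0.0997 to 0.141), as did the DESeq2 size factors, thinning to equal nuclear depth and the replicate block.

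Pdia3, Pdia4 and Pdia6, of the protein disulfide isomerase family, and the lectin chaperone genes Calr and Canx also rose. Their relatives Pdia5 (0.09 ± 0.17, adjusted p = 0.74), Txndc5 (0.35 ± 0.13, adjusted p = 0.0703) and Tmx1 (0.46 ± 0.16, adjusted p = 0.0647), from a further list, did not pass. Pdia6, which also binds IRE1 and PERK, had 191 ± 16.2 CPM in KO and 108 ± 32.4 CPM in WT (SD, n = 4 each), a log2 fold change of 0.84 ± 0.19 (adjusted p = 0.0118). Pdia4 was at 132, 145, 145 and 143 CPM in KO and 84.6, 81.2, 84.3 and 95.03 CPM in WT, groups that lay well apart (log2 fold change 0.71 ± 0.12, adjusted p = 0.00222). Pdia3, the isomerase that acts on glycoproteins held by calnexin and calreticulin, changed by 0.46 ± 0.13 (adjusted p = 0.033). Its nearest KO and WT libraries were close, at 376 CPM in KO and 354 CPM in WT. Calr and Canx, which encode calreticulin and calnexin, changed by 0.60 ± 0.13 (adjusted p = 0.00808) and 0.75 ± 0.17 (adjusted p = 0.0113). The call of Pdia3 was lost without KO replicate 2, 3 or 4 or WT replicate 2 or 3 (adjusted p 0.0768 to 0.0987), after thinning and without a filter on low counts.

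Hsp90b1 encodes GRP94, the ER form of HSP90, and was the chaperone gene that did not pass. Its level was 294, 304, 305 and 301 CPM in KO and 248, 224, 247 and 392 CPM in WT. The KO libraries were tightly grouped, above WT replicates 1 to 3 and below WT replicate 4. KO over WT was 0.12 ± 0.18 on the log2 scale (adjusted p = 0.67, 95% interval -0.27 to 0.51), and 0.34 (adjusted p = 0.00369) without WT replicate 4.

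**Figure D2:**
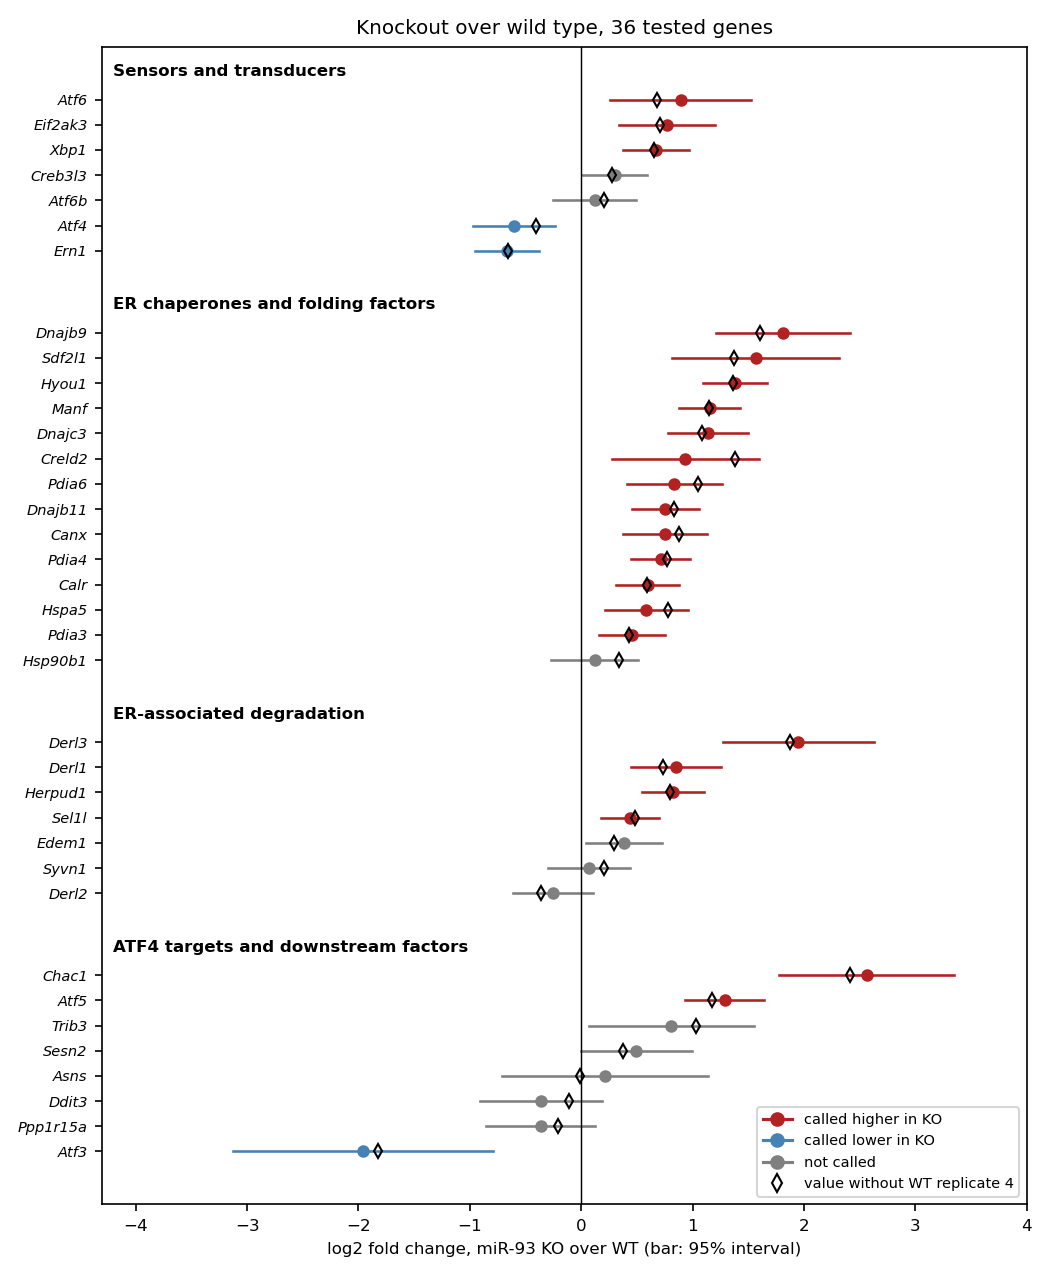
Log2 fold change of KO over WT (x axis) for the 36 tested genes by role, with 95% intervals from the edgeR fit; red and blue mark genes called higher and lower in KO, grey those not called, and open diamonds the value without WT replicate 4. Of the chaperones 13 of 14 lie right of 0 with an interval that excludes it, while Atf4, Ern1 and Atf3 lie left.

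Exact matches to stress response elements were sought in the promoter sequences of RefSeq (GRCm38.p6), from 250 bases before to 50 bases after the transcription start, on both strands. The files' build is mm39, so these positions describe the reference only. RefSeq promoters were matched by symbol for 34 of the 38 genes, and Atf6, Hyou1, Manf and Derl1 had no entry. The ER stress response element (ERSE), bound by NF-Y with ATF6 or XBP1, was searched as CCAAT and CCACG separated by 9 bases of any kind. It was found in 9 of the 34 genes, against 39 of all 32851 promoters (0.119%). Those 9 were 7 chaperone genes (Hspa5, Creld2, Dnajc3, Hsp90b1, Pdia6, Calr and Canx) and 2 degradation genes (Syvn1 and Derl3). ERSE was first defined on promoters of ER chaperone genes such as Hspa5, so its presence there is background. A second form, ERSE-II, searched as ATTGG and CCACG separated by 1 base, was found in Herpud1 and Dnajb11 and in 0.0365% of all promoters. The XBP1 element TGACGTGG was in no promoter of the 34 genes and in 0.676% of all promoters. An exact match to any ER motif was present in 9 of the 18 genes that rose and had a promoter, and in 2 of the other 16. Over all promoters the share was 0.822%. The 11 genes were chaperone genes (8 of 12 with a promoter) or degradation genes (3 of 6), and no sensor or ATF4 target held an exact match. Elements that differ from these letters were not sought, so a gene without a match may still hold a variant. The split by call therefore cannot be told apart from role. The motifs do not overlap each other in these promoters. A match describes letters and not a bound site.

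The stretches around these matches are shown for genes that rose (Hspa5, Creld2, Dnajc3, Pdia6, Derl3) and, for contrast, for Syvn1, which did not pass. They run 5′ to 3′ along the gene, and capitals mark the fixed letters of ERSE (as CGTGG and ATTGG where the match is on the opposite strand).
Hspa5, chr2:34772010-34772058, plus strand: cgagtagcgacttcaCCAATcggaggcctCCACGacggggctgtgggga
Creld2, chr15:88819505-88819553, plus strand: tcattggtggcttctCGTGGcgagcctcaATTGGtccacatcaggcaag
Dnajc3, chr14:118937812-118937860, plus strand: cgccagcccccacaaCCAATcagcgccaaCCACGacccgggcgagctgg
Pdia6, chr12:17266476-17266524, plus strand: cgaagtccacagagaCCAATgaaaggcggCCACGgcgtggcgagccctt
Derl3, chr10:75893227-75893275, plus strand: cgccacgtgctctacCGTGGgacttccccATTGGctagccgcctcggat
Syvn1, chr19:6046517-6046565, plus strand: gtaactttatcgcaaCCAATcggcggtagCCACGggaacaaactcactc
Counted from 0 at the annotated start, the match begins at position -65 in Hspa5, -98 in Pdia6, -105 in Dnajc3, -126 in Creld2 and -156 in Derl3. Hsp90b1 held 2 ERSE matches and yet did not pass, and the match of Syvn1, at position -44, stood beside a log2 fold change of 0.07 ± 0.17. The median log2 fold change was 0.75 over the 11 tested genes with an exact ER motif match and 0.43 over the 21 without. These sets differ in role, since no sensor or ATF4 target held an exact match. Chaperone genes with a motif ran from 0.12 (Hsp90b1) to 1.14 (Dnajc3). Those with a promoter but no exact match all rose (Dnajb9 1.81, Sdf2l1 1.57, Pdia4 0.71 and Pdia3 0.46).

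Genes of ER-associated degradation, which moves misfolded proteins to the cytosol for the proteasome, rose in 4 of 7 cases with none lower (median 0.43, or 5 higher and 1 lower with a median of 0.48 without WT replicate 4). Under library size scaling 1 of the 7 was called, Derl3 (adjusted p = 0.0112). Herpud1, an ER membrane protein that organises the degradation complex, had 564, 646, 581 and 638 CPM in KO and 354, 357, 345 and 315 CPM in WT. The lowest KO library was above 560 CPM and the highest WT library below 360 CPM. The log2 fold change was 0.82 ± 0.13 (adjusted p = 0.00111). Derl3, a Derlin of the degradation channel known as strongly ER stress-inducible, had the largest fold change of the 7, with 8.63, 8.16, 7.597 and 9.82 CPM in KO and 2.91, 1.099, 3.03 and 1.12 CPM in WT. These are low levels, from 106, 97, 104 and 129 counts in KO and 23, 8, 20 and 2 counts in WT, and the groups lay far apart (log2 fold change 1.95 ± 0.31, adjusted p = 0.00146).

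Its paralog Derl1 rose by 0.85 ± 0.18 (adjusted p = 0.00839), with 84.7 ± 10.2 CPM in KO and 46.2 ± 11.8 CPM in WT (SD, n = 4 each). Derl2, at 71.00, 75.1, 74.9 and 84.1 CPM in KO and 90.1, 99.6, 107 and 64.1 CPM in WT, pointed the other way. WT replicates 1 to 3 lay above every KO library and WT replicate 4 below them all, and the change of -0.25 ± 0.16 did not pass (adjusted p = 0.288), and it was -0.37 (adjusted p = 0.00508) without WT replicate 4. Under library size scaling Derl2 read 0.25, below the median of all genes of 0.54.

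Of the ubiquitin ligase HRD1 and its adaptor, only the gene of the adaptor was called. Sel1l, the adaptor that stabilises the ligase HRD1, rose by 0.43 ± 0.12 (adjusted p = 0.0245), with 89.3 to 99.2 CPM in KO and 66.8 to 76.5 CPM in WT. That call was lost without any KO library or WT replicate 2 or 3 (adjusted p 0.0531 to 0.0779), after thinning and without a filter on low counts. Syvn1, the gene of HRD1 itself, had 154, 139, 168 and 142 CPM in KO and 116, 158, 121 and 182 CPM in WT. The groups overlapped, and the 95% interval of the log2 fold change was -0.30 to 0.44 (adjusted p = 0.805). Edem1, which trims mannose from misfolded glycoproteins and is an XBP1 target, did not overlap between groups (92.3 to 102 CPM in KO and 55.7 to 87.9 CPM in WT) but did not pass at 0.38 ± 0.16 (adjusted p = 0.103). Without WT replicate 4 it read 0.29 (adjusted p = 0.0336).

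Among the sensors and transducers 3 of 7 rose and 2 fell. Ern1, the gene of IRE1, fell: it had 21.5, 24.9, 21.99 and 25.3 CPM in KO and 41.7, 37.5, 32.3 and 37.1 CPM in WT. No KO library exceeded 26 CPM and no WT library was under 32 CPM. The log2 fold change was -0.67 ± 0.13 (adjusted p = 0.00472), and this call held in all alternatives tried except library size scaling, where the gene read -0.10 against a median of 0.54. Xbp1, whose mRNA IRE1 splices, moved the other way, with 171, 223, 183 and 197 CPM in KO and 129, 130.2, 112 and 116 CPM in WT. All KO libraries were above 170 CPM and all WT libraries below 131 CPM, with a log2 fold change of 0.67 ± 0.14 (adjusted p = 0.00583). The Xbp1 call was lost under library size scaling (adjusted p = 0.094), where none of the 7 sensors and transducers was called. The counts do not separate spliced from unspliced Xbp1.

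The genes of the other membrane sensors rose. Eif2ak3, the gene of PERK, had 10.5, 12.1, 9.42 and 12.5 CPM in KO and 7.33, 5.77, 7.43 and 4.498 CPM in WT, groups that did not overlap at a low level (log2 fold change 0.77 ± 0.20, adjusted p = 0.018). Atf6 had 36.3, 44.2, 35.6 and 43.9 CPM in KO and 26.3, 23.9, 25.03 and 5.06 CPM in WT. Most of its WT spread came from WT replicate 4, with 9 counts. On the log2 scale the change was 0.89 ± 0.29 (adjusted p = 0.0484), close to the threshold, and 0.68 (adjusted p = 7.07e-05) without that library. Leaving out any other library ended the call of Atf6 (adjusted p 0.0534 to 0.129), as did no filter on low counts, library size scaling (adjusted p = 0.158) and the replicate block. That of Eif2ak3 ended without KO replicate 2 or 4 or WT replicate 2 (adjusted p 0.0602 to 0.0648), when libraries were thinned to one nuclear depth (adjusted p = 0.075), under library size scaling (adjusted p = 0.0879) and with the replicate block. Exons of Eif2ak3 share 485 bases (8.05% of their length) with an annotated transcript on the opposite strand. Those of Hsp90b1 share 415 bases (10.3%) with one on the opposite strand, and 133 and 84 bases with others on the same strand. The sources used here do not give whether counting used strand.

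The ATF6 paralog Atf6b, with a 95% interval of -0.25 to 0.50, did not pass (adjusted p = 0.653). Creb3l3 encodes CREBH, a liver-enriched factor held in the ER membrane and released like ATF6, known for acute phase, lipid and fasting genes. Its KO libraries held 276, 288, 289.9 and 279.8 CPM and its WT libraries 203, 269.8, 233 and 215 CPM. The groups did not overlap but came close, and the change of 0.30 ± 0.13 did not pass (adjusted p = 0.13), or read 0.28 (adjusted p = 0.0255) without WT replicate 4.

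Atf4, the translationally induced factor of the integrated stress response, fell at the mRNA level. It had 89.6, 82.8, 91.97 and 86.5 CPM in KO and 115, 118, 119 and 184 CPM in WT. The KO libraries were tight, WT replicates 1 to 3 were tight and higher, and WT replicate 4 was higher still. KO over WT gave -0.60 ± 0.17 on the log2 scale (adjusted p = 0.0266), and -0.41 (adjusted p = 0.0011) without WT replicate 4. The call was lost without any single KO library (adjusted p 0.0640 to 0.0916) and without a filter on low counts, and under library size scaling Atf4 read 0.07, below the median of all genes.

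Targets and downstream factors of ATF4 did not move as a group: of 8 tested genes 2 rose, 1 fell and 5 did not pass (median 0.35, or 0.18 with 3 higher and 1 lower without WT replicate 4). Chac1, an enzyme that breaks down glutathione, had 11.3, 9.68, 12.3 and 11.6 CPM in KO and 2.78, 1.099, 2.43 and 0 CPM in WT. These came from 139, 115, 168 and 152 counts in KO and 22, 8, 16 and 0 counts in WT. For Chac1 the log2 fold change came to 2.56 ± 0.36 (adjusted p = 0.000632), the largest of the 36 genes, and 2.41 (adjusted p = 3.96e-08) without WT replicate 4. Atf5, a factor of the same family as ATF4 and abundant in liver, had 259, 299, 295 and 295 CPM in KO and 136, 121, 126 and 84.9 CPM in WT. Each KO library lay above 250 CPM and each WT library below 140 CPM, with a log2 fold change of 1.29 ± 0.16 (adjusted p = 0.000293).

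Atf3, a stress-inducible factor that mostly represses, went down. It had 0.977, 0.505, 0.146 and 0.533 CPM in KO, from 12, 6, 2 and 7 counts, and 1.52, 2.75, 1.52 and 3.37 CPM in WT, from 12, 20, 10 and 6 counts. The groups did not overlap, but all values were low (log2 fold change -1.96 ± 0.53, adjusted p = 0.0238). That call was lost without KO replicate 2, 3 or 4 or WT replicate 2 (adjusted p 0.0592 to 0.0881). It was also lost under library size scaling (adjusted p = 0.154) and with the replicate block (adjusted p = 0.0672). After thinning to equal nuclear depth Atf3 was not tested. Ddit3, the gene of the death-linked factor CHOP, had 18.9, 13.6, 15.3 and 13.3 CPM in KO and 13.4, 20.5, 15.9 and 33.7 CPM in WT. The groups overlapped, with the highest value in WT replicate 4, and the change of -0.36 ± 0.25 did not pass (adjusted p = 0.332, 95% interval -0.91 to 0.19). A second ID that carries the same symbol at an overlapping locus had 0 counts in every library.

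The feedback genes were also not called. Ppp1r15a encodes GADD34, which brings the phosphatase to eIF2, and had 7.82 to 10.4 CPM in KO and 8.19 to 17.99 CPM in WT, a change of -0.36 ± 0.22 (adjusted p = 0.272). Trib3, a pseudokinase that inhibits ATF4 and CHOP, had 7.08, 5.97, 5.19 and 6.24 CPM in KO and 4.55, 1.79, 2.58 and 6.75 CPM in WT. WT replicate 4 lay among the KO libraries and the rest of WT below them (0.81 ± 0.34, adjusted p = 0.111), and without it the value was 1.03 (adjusted p = 0.00493). Sesn2, a stress-induced inhibitor of mTORC1, changed by 0.49 ± 0.23 (adjusted p = 0.143) with groups that did not overlap.

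The amino acid synthesis genes were low and not called. Asns, which makes asparagine, had 8.06, 7.83, 5.55 and 11.3 CPM in KO and 8.08, 7.56, 9.25 and 0 CPM in WT. WT replicate 4 had a count of 0, the other WT libraries lay within the range of KO, and the 95% interval of -0.71 to 1.14 is wide (adjusted p = 0.758). Psat1 and Phgdh, which start serine synthesis, did not pass the filter on low counts. Psat1 had 0, 4, 2 and 4 counts in KO and 21, 1, 6 and 1 counts in WT, and Phgdh 3, 5, 3 and 8 counts in KO and 24, 4, 4 and 0 counts in WT. For both, WT replicate 1 held the most.

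The C/EBP-ATF response element (CARE), the site of ATF4 dimers, was searched as TTNCATCA on both strands of the same promoters. It was found in 5 of the 34 genes and in 3.97% of all promoters. The 5 were Chac1, Atf3, Trib3, Asns and Herpud1, of which 4 belong to the 10 ATF4 targets. The stretches are shown because the genes that carry the same element moved differently, and capitals mark its fixed letters, together with those of ERSE-II in Herpud1.
Chac1, chr2:119351034-119351071, plus strand: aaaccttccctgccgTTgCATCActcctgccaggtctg
Atf3, chr1:191183421-191183458, minus strand: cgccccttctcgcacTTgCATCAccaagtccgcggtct
Trib3, chr2:152344024-152344061, minus strand: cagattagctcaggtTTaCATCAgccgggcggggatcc
Asns, chr6:7693210-7693247, minus strand: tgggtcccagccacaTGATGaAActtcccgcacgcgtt
Herpud1, chr8:94386302-94386402, plus strand: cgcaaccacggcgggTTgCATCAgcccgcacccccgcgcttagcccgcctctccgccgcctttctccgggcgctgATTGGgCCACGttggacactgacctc
Chac1 rose and Atf3 fell, and both hold TTGCATCA, at positions -193 and -110. Trib3 and Asns did not pass, and Herpud1, with both kinds of element, rose.

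**Figure D3:**
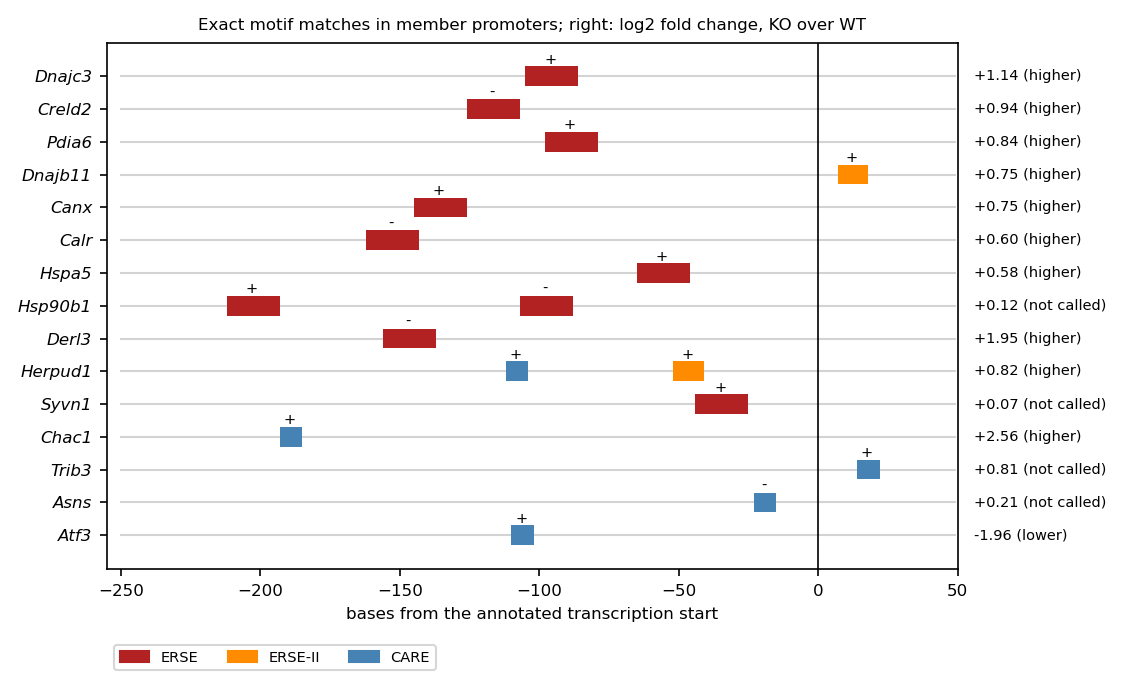
Positions of exact motif matches, in bases from the annotated transcription start (x axis), in the 15 genes that hold any, with the strand above each bar and the log2 fold change of KO over WT at the right. ERSE lies between positions -212 and -26, and genes with the same element include called and uncalled ones.

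Levels were compared between the genes only per kilobase of exon length (GENCODE M21). In KO libraries Herpud1 (260.3 ± 17.5 CPM per kb) and Calr (246 ± 19.0 CPM per kb) led and did not differ beyond their spread, and in WT libraries they held 147 ± 8.26 and 163 ± 10.8 CPM per kb (SD, n = 4 each). Atf5, Pdia3 and Hspa5 came next in KO, at 144 ± 9.39, 133 ± 9.0 and 129 ± 7.48 CPM per kb. These SDs describe the spread over libraries and do not compare genes within the same library. In WT libraries these were 58.6 ± 11.1 for Atf5, 96.8 ± 11.1 for Pdia3 and 86.5 ± 21.0 CPM per kb for Hspa5. The sensor kinases were among the lowest: Ern1 had 2.87 ± 0.241 and Eif2ak3 1.85 ± 0.237 CPM per kb in KO, against 4.55 ± 0.469 and 1.04 ± 0.232 CPM per kb in WT.

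The plot of each library against the gene's own mean shows how far the 8 libraries share this pattern.

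**Figure D4:**
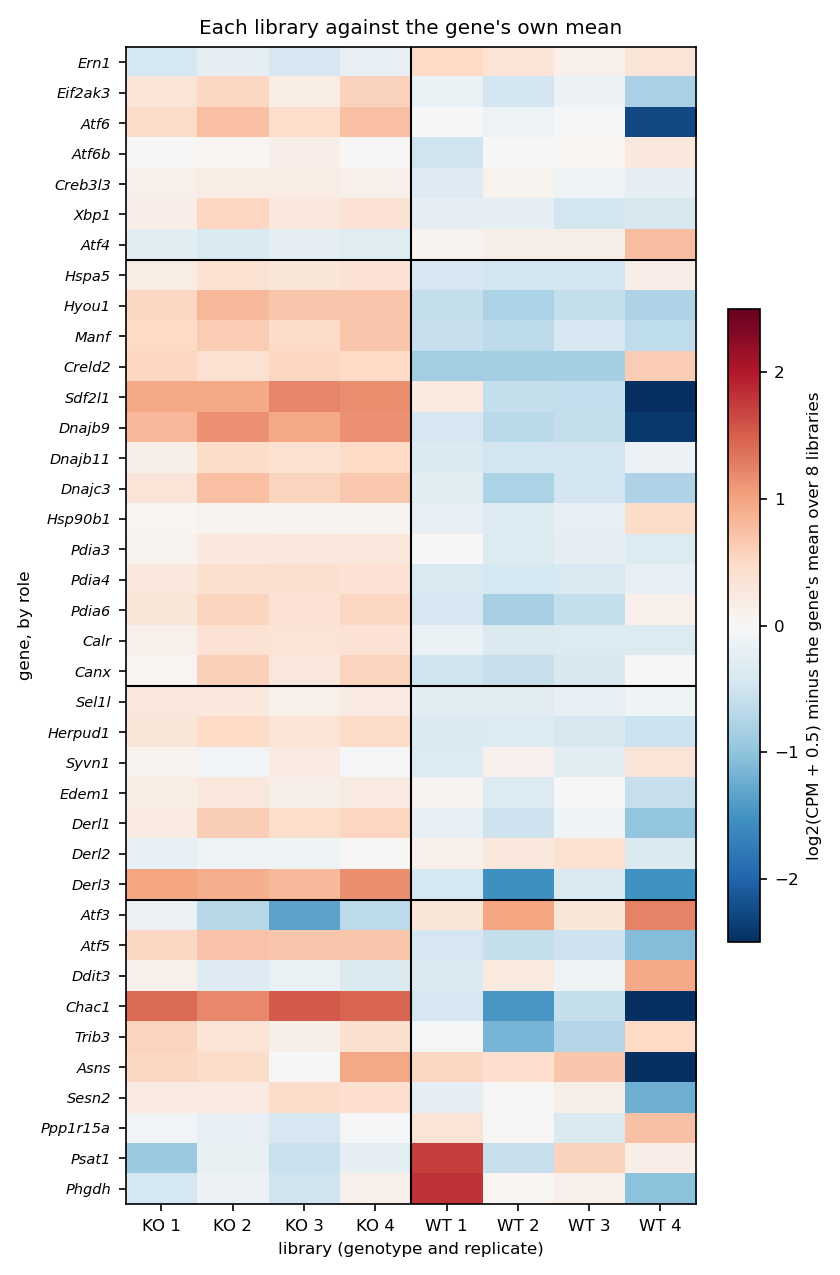
Colour gives log2(CPM + 0.5) minus the gene's mean over the 8 libraries, with KO replicates left of WT replicates and genes in rows by role; values beyond 2.5 in either direction take the end colour. The 4 KO columns are similar but not identical for the chaperones. Their summed level was 2786 CPM in KO replicate 1 and 3101 to 3251 CPM in the other KO libraries. WT replicate 4 departs from the other WT columns in both directions.

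miR-93 itself acts by pairing its seed with target mRNAs. The mature miR-93-5p of RefSeq (GRCm38.p6, chr5:138165574-138165596, minus strand) is shown with its seed, bases 2 to 8, in capitals.
miR-93-5p: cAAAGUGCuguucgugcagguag
The complementary 7 bases were present in the longest annotated 3′ UTR (GENCODE M21) of 8 of the 38 genes, against 14.6% of 11579 tested genes with such a UTR. Of these 8, Manf, Dnajb9, Pdia6 and Derl1 rose, Ern1 and Atf3 fell, and Derl2 and Sesn2 did not pass. Ern1, which fell, held 2 matches. The sites are shown with the seed match in capitals, written as DNA, for the gene with 2 matches and for 3 that rose.
Ern1, first site: gtaccaaagcacttGCACTTTtg
Ern1, second site: tctggttgctcttgGCACTTTgg
Manf: tccaagttcctcctGCACTTTct
Dnajb9: atttctttagttctGCACTTTtc
Derl1: ggactcgttgctagGCACTTTtc
These letters do not show that the microRNA binds there.

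Further genes of the pathway, in lists chosen with earlier results of these data known, were read from the same fit, where 10.4% of all genes tested rose and 10.7% fell (17.8% and 17.5% without WT replicate 4). Of 23 tested further ER folding factors 6 rose and none fell (median 0.32; 14 rose without WT replicate 4). The smallest p-value belonged to P4hb, the main protein disulfide isomerase (1.05 ± 0.13, adjusted p = 0.000331, 1337 ± 134 CPM in KO and 646 ± 39.1 CPM in WT, SD, n = 4 each). Ppib, the ER cyclophilin (0.80 ± 0.12), and Mesd, the chaperone of LDL receptor family members (1.28 ± 0.21), followed in order of p, not of fold change. Of 23 further degradation genes 5 rose and none fell (median 0.30; 9 higher and 2 lower without WT replicate 4). The ubiquitin-conjugating enzyme gene Ube2g2 (1.20 ± 0.18, adjusted p = 0.000942), the selenoprotein gene Selenos (1.20 ± 0.18) and Ubxn4 (0.47 ± 0.12, adjusted p = 0.0216) had the smallest p-values. Ubxn4 lost its call without KO replicate 2, 3 or 4 or WT replicate 2 or 3 (adjusted p 0.0514 to 0.0726).

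Of 11 further components of the sensor pathways 5 rose and 1 fell. Creb3l2, another ER-bound factor released by cleavage, had 28.3 ± 2.501 CPM in KO and 10.5 ± 2.94 CPM in WT (SD, n = 4 each), a log2 fold change of 1.37 ± 0.18 (adjusted p = 0.00041). Rtcb, the ligase that joins the Xbp1 exons after IRE1 cuts them, rose by 0.96 ± 0.25 (adjusted p = 0.0217) and Wfs1, an ER membrane protein that restrains ATF6, by 0.88 ± 0.22 (adjusted p = 0.0172). Traf2, the adaptor that couples IRE1 to JNK, fell, with a log2 fold change of -0.65 ± 0.19 (adjusted p = 0.0341). Rtcb and Traf2 lost their calls when any KO library or WT replicate 2 was left out (and Traf2 also without WT replicate 3), with adjusted p of 0.0504 to 0.101, and Wfs1 without KO replicate 2 or WT replicate 2. In the list of eIF2 kinases, phosphatase and exchange factors, which also holds Dnajc3, 5 of 15 rose and none fell (6 higher and 1 lower without WT replicate 4). Eif2b5 (0.75 ± 0.16, adjusted p = 0.00778) and Eif2b4 (0.48 ± 0.14, adjusted p = 0.0316), subunits of the exchange factor that phosphorylated eIF2 blocks, had the smallest p-values after Dnajc3. Eif2b4 lost its call in 6 of the 8 fits that leave out a library.

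In a wider list of ATF4 targets 3 of 25 rose and 2 fell, near the share of all genes tested (median 0.00; 8 higher and 3 lower of 26 without WT replicate 4). Fgf21, the fasting and stress hormone, had 113, 85, 135 and 93 counts in KO and 5, 2, 2 and 0 counts in WT (4.42 ± 0.38, adjusted p = 2.17e-05), and Cdkn1a, the cell cycle inhibitor p21, changed by 3.01 ± 0.38 (adjusted p = 0.000293). Both also answer to factors other than ATF4. Cth, the last enzyme of cysteine synthesis, went down to 175 ± 21.3 CPM in KO, against 393 ± 129 CPM in WT (-1.17 ± 0.24, adjusted p = 0.00635), and the glutamine transporter gene Slc38a2 changed by -0.47 ± 0.13 (adjusted p = 0.024). Slc38a2 lost its call without any library other than WT replicate 4 and read 0.07 under library size scaling.

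Of 10 listed targets of CREB3L3, 5 rose and 1 fell (median 0.69; 6 higher and 3 lower without WT replicate 4). Fgf21 is in this list too and is 1 of the 5, so it is counted both here and among the ATF4 targets. Apoa4, an apolipoprotein, had 687 ± 64.2 CPM in KO and 94.4 ± 11.1 CPM in WT, and Apcs, the acute phase protein serum amyloid P, 169.6 ± 4.14 CPM in KO and 26.7 ± 4.83 CPM in WT (SD, n = 4 each). Their log2 fold changes were 2.86 ± 0.15 and 2.64 ± 0.15. Fads1, a fatty acid desaturase, fell (-0.86 ± 0.27, adjusted p = 0.0415), a call lost without any library other than WT replicate 4.

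Markers of other cell types were measured beside these genes, since plasma cells and pancreatic acinar cells carry much ER. Of 8 plasma cell markers 5 were tested, of which Sdc1 fell and none rose, and the summed level was 104 to 271 CPM in KO and 214 to 1071 CPM in WT. Tnfrsf17, a defining marker, had 0 counts in every library but WT replicate 3, with 2. All 6 B cell markers fell, with sums of 4.68 to 10.4 CPM in KO and 33.1 to 67.3 CPM in WT. Of 7 acinar markers Cpa1, Pnlip, Amy2a5 and Prss2 were at 0 in every library, and the sum, 7.0 to 9.04 CPM in KO and 6.19 to 8.97 CPM in WT, was mostly Cela1. Kupffer cell markers rose in 4 of 6 cases (sums of 109.9 to 125 CPM in KO and 31.3 to 133 CPM in WT) and sinusoidal endothelial markers in 4 of 5 (55.0 to 116 CPM in KO and 30.7 to 32.9 CPM in WT). The Kupffer sum of 133 CPM was that of WT replicate 4, and the other WT libraries held 31.3 to 50.7 CPM. Neutrophil markers summed to 3.07 to 4.21 CPM in KO and 1.64 to 4.50 CPM in WT, with Ngp at 0. The 4 cholangiocyte markers, of which 1 of 2 tested rose, summed to 30.7 to 32.1 CPM in KO and 10.1 to 20.1 CPM in WT. Of the 5 stellate cell markers 2 fell and none rose, with sums of 28.4 to 30.0 CPM in KO and 46.0 to 111 CPM in WT. The stellate sum of 111 CPM was that of WT replicate 4, and the other WT libraries held 46.0 to 55.6 CPM. The part of these other cell types in the chaperone levels was not tested.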

How the data were processed

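Liver RNA of 4 miR-93 KO and 4 WT libraries was sequenced in bulk. The authors deposited raw counts per Ensembl gene, with no normalization. Per the submitters' processing notes, cutadapt 4.2, STAR 2.7.10a and the mm39 build were used; the counter and its handling of strand and shared reads are not given in the sources used here.

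A reference table of gene names gave symbols for 52073 of 56748 IDs. The test was edgeR 4.0.16 (R 4.3.3): robust quasi-likelihood fits, TMM factors, filterByExpr on genotype (13204 of 25937 detected genes kept), two-sided, Benjamini-Hochberg adjusted over all genes tested, threshold 0.05. All 38 genes are named, and from other lists up to 3 genes with the smallest p plus any called against the list's main direction. Dnajc1, Dnajc10, Pdia5, Txndc5, Tmx1, Sil1 and the marker genes were named after their values were seen. The result of 1 further list is not reported here. The members and lists were chosen with earlier results of these data known. Of the listed symbols 9, among them older or newer names of listed genes, matched no ID. Single library measures had exact permutation tests. Alternatives were other scalings, filters, DESeq2 1.42.0, limma 3.58.1 (voom), a replicate block, thinning and each library left out. Steps were tested on simulated data. Protein sequences were not used here, so the planned look at C-terminal residues was not made. Figures used matplotlib 3.10.9.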

Additional observations from a re-analysis of the deposited data

Results flagged for a closer look

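In 80 groups of 4 libraries (38 genes, total counts and the mitochondrial share, each in KO and WT), 9 had a library whose gap to the nearest other exceeded Dixon's 95% critical value of 0.829 of the group's range; chance alone flags about 1 in 20 groups. In 5 of the 9 the library was WT replicate 4. It was the lowest of WT for Atf6 (5.06 CPM, the rest 23.9 to 26.3 CPM) and the highest for Atf4 (184 CPM, the rest 115 to 119 CPM), Hspa5 (498 CPM, the rest 316 to 332 CPM), Creld2 (58.5 CPM, the rest 20.3 to 20.6 CPM) and Hsp90b1 (392 CPM, the rest 224 to 248 CPM). KO replicate 1 was the lowest of KO for Pdia3 (376 CPM, the rest 429 to 435 CPM), Calr (628 CPM, the rest 727 to 742 CPM) and Atf5 (259 CPM, the rest 295 to 299 CPM). WT replicate 1 was the highest of WT for Calr (515 CPM, the rest 447 to 457 CPM). WT replicate 4 also had the highest mitochondrial share, and its part in these values was not tested.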

How the results depend on the processing

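Across 19 alternatives, 10 of the 25 called members stayed called in the same direction in all, and 16 in all but library size scaling. Of 13204 genes 2777 were called; the count was 685 with library size only, 1542 of 8919 after thinning to equal nuclear depth, 4950 with voom quality weights, and 1489 to 4853 when a library was left out. Members called higher (22) numbered 12 with library size only and 16 to 26 with a library left out; members called lower (3) numbered 0 and 1 to 4. Reversed values were, with library size only, Atf4 0.0655, Derl2 0.245, Ddit3 0.307, Ppp1r15a 0.253 and Slc38a2 0.0651, and after thinning, Syvn1 -0.00519. The library size values all lay below the median of all genes in that scaling, 0.54. With a library left out, Atf6b ran from -0.0174 (without WT replicate 1) to 0.209, Syvn1 from -0.0141 (without WT replicate 1) to 0.206, and Asns from -0.00763 (without WT replicate 4) to 0.394. Apart from Atf4 and Slc38a2 these were not called before or after. The cause was not tested. The filter at 1 CPM in 4 libraries kept 13565 genes, more than the main filter, so it was not stricter.

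The labels do not say whether shared replicate numbers mark paired libraries. Correlations of same-numbered KO and WT deviations were -0.19 to -0.03. Differently numbered libraries were not set beside them, so these values cannot show whether libraries were paired. With a replicate block 1267 genes were called and 1 member was lower, Ern1; calls of Eif2ak3, Atf6, Atf4, Hspa5, Creld2, Pdia3, Calr, Sel1l and Atf3 were not made. Precision in WT replicate 4 is limited by its depth.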
